A study of Saccharomyces cerevisiae with 2 samples.

Results

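The 56 genes for the cytosolic ribosomal proteins of the small (40S) subunit of budding yeast, Saccharomyces cerevisiae, are described here, as measured by RNA-seq in 2 libraries. The members are the rows whose systematic names belong to the RPS genes, from RPS0A to RPS31, and all 56 were found among the 6692 rows of each library. Both libraries are replicates of a single group, so levels were compared between genes and no test between conditions was possible. The group is strain yJL59a after methionine depletion. Its label gives the mating type MATa, the alleles ade2-1, can1-100, ura3-1, trp1-1, his3-11,15 and the double allele leu2-3 with leu2-112, and a pair of reporters driven by the MET3 promoter, mCherry with URA3 at CDC20 and GFP with KanMX at CWC23. Cells reached an OD660 of 0.2 in 50 mL of synthetic medium that held methionine, and were then washed and moved to medium that lacked it. The study calls its samples biologically independent. If they were not, the spread between the libraries would be technical only.

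The 40S subunit reads the mRNA, and it is built from a long ribosomal RNA and a set of small, mostly basic proteins that each occur once per subunit. Many yeast ribosomal protein genes exist as A and B copies left by an ancient duplication of the whole genome, and a large share of the introns of this organism lies in these genes. Their promoters are known to be bound by Rap1 together with Fhl1 and Ifh1, and their transcription is known to follow growth and nutrient signals through the TOR and protein kinase A pathways.

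The library totals were 34052011 counts in replicate 1 and 35367508 in replicate 2. The RPS genes held 1970449 counts in replicate 1, or 5.79% of the total (95% Wilson interval 5.78% to 5.79%), and 1903633 in replicate 2, or 5.38% (5.38% to 5.39%). These intervals cover counting error only. Each member had at least 1824 counts in each library, so none was near the detection limit. FPKM, the measure of level used here, is a count per kilobase of coding sequence, scaled to the size of the library. In both libraries, labelled MATa, the mating-type genes went against that label. STE3, the receptor made by alpha cells, had 12026 and 10489 counts, against 196 and 208 counts for STE2, the receptor made by a cells. MET3, which works in sulfate assimilation and is induced without methionine, was at 880 FPKM in replicate 1 and 799.8 FPKM in replicate 2.

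How alike the copies of a gene are sets how well short reads can tell them apart, so a distinct pair and a near-identical pair are shown first, from the R64 reference genome (the sacCer3 build). RPS28A (YOR167C, chromosome XV, 648804 to 649007, minus strand) and RPS28B (YLR264W, chromosome XII, 673131 to 673334, plus strand) encode eS28, which sits near the mRNA exit channel. The whole coding sequences follow, with the 24 of 204 bases that differ in capitals.
RPS28A: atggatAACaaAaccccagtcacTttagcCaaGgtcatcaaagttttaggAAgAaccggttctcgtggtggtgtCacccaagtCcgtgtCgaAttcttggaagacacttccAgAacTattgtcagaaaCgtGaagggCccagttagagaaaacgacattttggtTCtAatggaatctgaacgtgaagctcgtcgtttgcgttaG
RPS28B: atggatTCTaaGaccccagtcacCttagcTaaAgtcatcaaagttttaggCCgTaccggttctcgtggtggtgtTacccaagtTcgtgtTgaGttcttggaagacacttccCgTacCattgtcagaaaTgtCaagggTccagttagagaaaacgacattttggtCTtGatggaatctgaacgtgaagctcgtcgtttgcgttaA
RPS6A (YPL090C, chromosome XVI, 377291 to 378395, minus strand) and RPS6B (YBR181C, chromosome II, 591712 to 592774, minus strand) encode eS6, a target of TOR-dependent phosphorylation. Their coding sequences differ at 6 bases in all. Coding bases 22 to 141 follow, with the 3 differing bases in capitals.
RPS6A: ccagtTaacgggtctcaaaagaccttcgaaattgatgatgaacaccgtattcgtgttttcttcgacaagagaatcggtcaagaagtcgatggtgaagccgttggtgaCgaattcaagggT
RPS6B: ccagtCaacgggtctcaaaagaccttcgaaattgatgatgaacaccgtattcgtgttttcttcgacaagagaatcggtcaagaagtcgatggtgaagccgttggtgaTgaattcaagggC
A further 311 coding bases, from 355 to 665, are the same in both RPS6 copies. A read of 50 bases from that stretch cannot be given to either copy by its sequence.

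The RPS genes were all above the median gene by FPKM, but they were far from equal. The median over the 56 genes was 2019.6 FPKM (2099.7 in replicate 1 and 1964.5 in replicate 2). It was 1602 FPKM for the 81 genes of the large subunit and 45.9 FPKM for the 6007 genes with an annotated coding sequence. Some genes of both subunits share long stretches with another gene, which is described below mainly for the RPS genes. The effect of shared sequence on the large-subunit values was not tested. Overlapping reading frames were not searched over the large-subunit genes, so their effect on those values was not tested either. All 56 RPS genes were above the all-gene median in both libraries, against a background of 48.3% of all genes, and 78 of 81 large-subunit genes were. Without division by length, 55 of the 56 were. The large-subunit genes that were not above the FPKM median, RPL22A, RPL39 and RPL43A, had few counts, as described below. At least 1000 FPKM in both libraries was reached by 48 of the 56 RPS genes and by 59 of the 81 large-subunit genes, against 3.48% of all genes. The 8 RPS genes that did not reach it were RPS6A, RPS6B, RPS7B, RPS9A, RPS14B, RPS22B, RPS27A and RPS28B. All 8 belong to a duplicated pair, but so do 48 of all 56 members. Shared sequence leaves the levels of RPS6A and RPS6B uncertain, as described below. Among the 100 genes of highest FPKM in the genome 26 were RPS genes, and among the 200 highest 45 were. The range within the members was 60.8-fold. The lowest was RPS9A (YPL081W), which ranked 1282 of all genes, and the highest was RPS31 (YLR167W), which ranked 8.

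**Figure D1:**
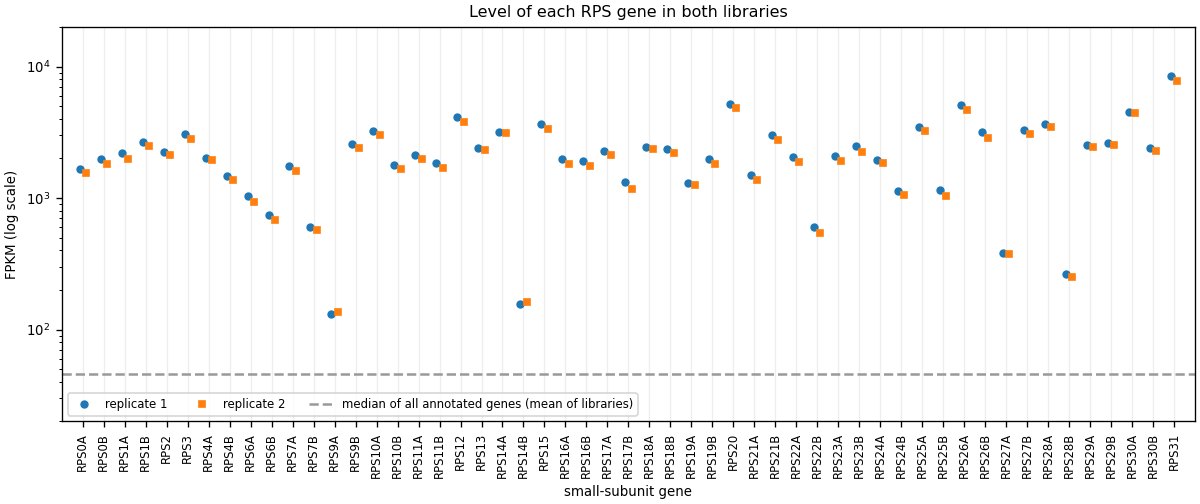
FPKM of 53 of the 56 RPS genes on a log axis, with replicate 1 as circles and replicate 2 as squares. The dashed line is the median of all annotated genes, 45.9 FPKM. The 4 lowest genes, RPS9A, RPS14B, RPS28B and RPS27A, lie far under their partner copies.

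Of the 32 proteins, 8 are encoded by a single gene and 24 by a pair. The single-copy genes were all high. RPS31, which encodes eS31 as a fusion with ubiquitin that is cleaved after translation, had 8499.8 and 7760.0 FPKM in replicates 1 and 2. RPS20 (YHL015W), for uS10, a protein ubiquitinated when ribosomes collide, had 5228.5 and 4878 FPKM. RPS31 was above RPS20 in each library, and their values did not overlap. RPS12 (YOR369C), for eS12 of the beak of the subunit, had 4140.5 and 3781 FPKM, and RPS15 (YOL040C), for uS19, whose tail reaches the decoding site, had 3668 and 3367 FPKM. RPS3 (YNL178W), for uS3 at the mRNA entry channel, had 3048 and 2820.4 FPKM. The lowest of the set were RPS13 (YDR064W), for uS15, with 2402 and 2335 FPKM, and RPS2 (YGL123W), for uS5, which takes part in decoding accuracy, with 2238 and 2132 FPKM.

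Copies of the same protein differed by more than 2-fold in both libraries in 7 of the 24 pairs, and in 4 of these by more than 8-fold. The largest gap was in RPS14, which encodes uS11 of the platform. RPS14A (YCR031C) had 3194 and 3140.0 FPKM and RPS14B (YJL191W) had 157 and 161 FPKM, a ratio of A over B of 20.3 in replicate 1 and 19.5 in replicate 2. RPS9, for uS4, which takes part in decoding accuracy, was skewed the other way. RPS9A had 132 and 135 FPKM and RPS9B (YBR189W) had 2555 and 2393 FPKM, so that the B copy was at 19.3 and 17.7 times the A copy. For both genes the protein is known to act on the splicing of its own transcripts, Rps14 on RPS14B and Rps9 on RPS9A, the low copy in each pair here. Spliced and unspliced transcripts are not separated in these counts. RPS28A had 3635 and 3444 FPKM and RPS28B had 265 and 253 FPKM, 13.7 and 13.6 times apart. Rps28 is known to bind the end of the RPS28B mRNA and to promote its decay. RPS27, for the zinc-binding protein eS27, had 385 and 378 FPKM for RPS27A (YKL156W) and 3311 and 3095 FPKM for RPS27B (YHR021C), with B at 8.60 and 8.20 times A.

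In 3 of these 4 pairs the genes are interrupted by an intron just after the start codon. The exon end and the intron start of the RPS14 and RPS9 genes follow, with the first 6 intron bases, the 5′ splice site, in capitals. The most common form of this site in yeast is GTATGT.
RPS14A: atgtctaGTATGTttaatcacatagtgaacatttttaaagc
RPS14B: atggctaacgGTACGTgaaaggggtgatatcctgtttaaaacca
RPS9A: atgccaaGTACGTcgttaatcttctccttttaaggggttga
RPS9B: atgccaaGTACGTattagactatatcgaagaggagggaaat
RPS14B carries GTACGT and RPS14A carries GTATGT, both RPS9 copies carry GTACGT, and both RPS27 copies carry GTATGT. The letters of this site thus differ between the high and the low copy in RPS14, but not in RPS9 or RPS27.

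In the other 3 pairs past 2-fold the A copy was higher. RPS22A (YJL190C) had 2036 and 1870.2 FPKM and RPS22B (YLR367W) had 604 and 546 FPKM, 3.37 and 3.42 times apart. RPS22, for uS8, is the only pair with an intron in 1 copy alone, and it is the lower copy, RPS22B, that carries it. The small nucleolar RNA gene SNR44 lies inside that intron and takes up none of the coding bases. RPS25A (YGR027C) had 3486 and 3238 FPKM and RPS25B (YLR333C) had 1158 and 1028 FPKM, 3.01 and 3.15 times apart; eS25 is needed for initiation at some viral internal ribosome entry sites. RPS7A (YOR096W) had 1750.2 and 1599 FPKM and RPS7B (YNL096C) had 599 and 569.8 FPKM, 2.92 and 2.81 times apart. RPS7 encodes eS7, which is ubiquitinated by the Not4 ligase. RPS21 lay on the threshold. Its B copy (YJL136C) was 2.03 times the A copy (YKR057W) in replicate 1 and 1.99 times in replicate 2, so it was not counted. Next below was RPS30, with RPS30A (YLR287C-A) 1.91 and 1.98 times RPS30B (YOR182C).

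**Figure D2:**
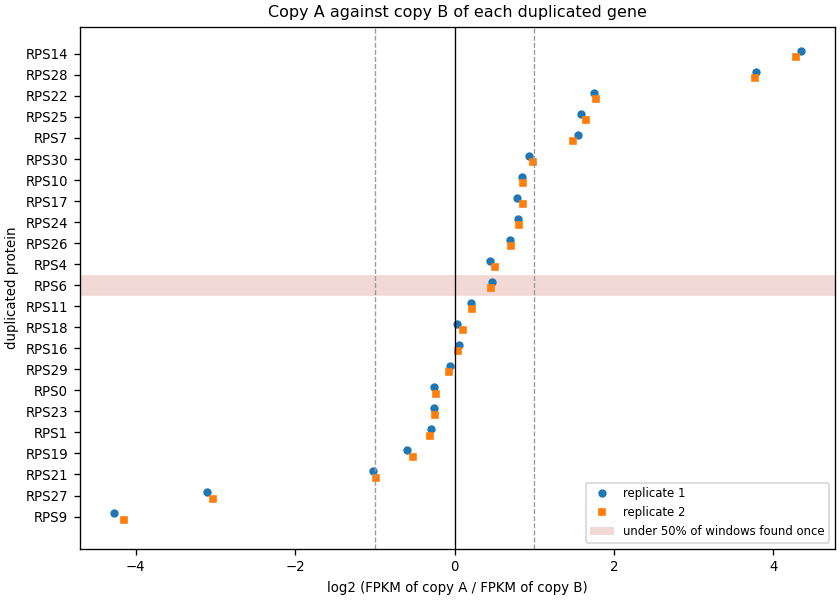
Log2 ratio of FPKM, copy A over copy B, for 23 of the 24 duplicated proteins in replicate 1 (circles) and replicate 2 (squares). Dashed lines mark 2-fold, and shading marks the pair RPS6, in which under 50% of coding windows are found once in the genome. Ratios run from -4.27 for RPS9 to 4.34 for RPS14, and both libraries fall almost on the same point in each row.

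The remaining 17 pairs were under 2-fold in at least 1 library. The A copy was higher in both libraries in 16 of the 24 pairs and the B copy in 8. The median size of the log2 ratio was 0.75. The ratios changed little between the libraries, by a median of 0.03 and at most 0.12, in RPS9, on the log2 scale. In 23 of the 24 pairs the ratio was larger than its own change between the libraries. The exception was RPS18, for uS13, in which RPS18A (YDR450W) exceeded RPS18B (YML026C) by 0.03 in replicate 1 and 0.11 in replicate 2 on the log2 scale. Its mean of 0.07 was under its change of 0.08. Copies lay within 1.2-fold of each other in both libraries in 6 pairs. They include RPS16A (YMR143W) and RPS16B (YDL083C), for uS9, whose tail touches the tRNA in the P site, with log2 ratios of 0.06 and 0.04. They also include RPS29A (YLR388W) and RPS29B (YDL061C), for uS14, with -0.06 and -0.07. RPS0A (YGR214W) and RPS0B (YLR048W), for uS2, had -0.25 and -0.24. Just outside 1.2-fold were RPS1A (YLR441C) and RPS1B (YML063W), for eS1, with -0.29 and -0.31.

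Between these extremes were pairs with a moderate and steady lead of 1 copy. RPS26A (YGL189C) had 5126 and 4693 FPKM and RPS26B (YER131W) had 3154 and 2866 FPKM, 1.63 and 1.64 times apart. Rps26 contacts mRNA upstream of the start codon. RPS10A (YOR293W) was 1.80 and 1.81 times RPS10B (YMR230W), RPS17A (YML024W) was 1.73 and 1.82 times RPS17B (YDR447C), and RPS24A (YER074W) was 1.74 and 1.75 times RPS24B (YIL069C). In RPS19, whose human counterpart is mutated in Diamond-Blackfan anaemia, the B copy (YNL302C) was 1.51 and 1.43 times the A copy (YOL121C). RPS23B (YPR132W) was 1.2 and 1.18 times RPS23A (YGR118W), the genes for uS12 of the decoding centre, and RPS11A (YDR025W) was 1.16 and 1.17 times RPS11B (YBR048W).

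When the copies of each protein were added, the levels came much closer together. The standard deviation of log2 FPKM was 0.52 over the 32 proteins, against 1.14 over the 56 genes. The range was 4.80-fold over the proteins, from RPS6 at 1692 FPKM to RPS31 at 8130 FPKM, against 60.8-fold over the genes. Within 2-fold of their own median were 29 of 32 proteins, against 43 of 56 genes. The coefficient of variation was 38.2% over proteins and 62.1% over genes. Adding values narrows a spread in itself, so the copies were also described separately. The higher copies alone had a standard deviation of 0.52 and the lower copies of 1.23. The copies were sorted by these same levels, so the wider spread of the lower copies is no separate evidence. After summing, RPS26 (7920.0 FPKM) and RPS30 (6834 FPKM) followed RPS31, and RPS6, RPS2 and RPS7 (2259 FPKM) were lowest. Of the 31 neighbouring pairs in this order, 25 had overlapping values in the libraries, and 25 stood in the same order in both libraries, so the middle of the order is not resolved.

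By FPKM, the median of the single-copy genes was close to that of the summed pairs and above that of single copies. It was 3739 ± 233 FPKM (SD between replicate medians, n = 2), against 1904 ± 105 FPKM for the 48 duplicated genes and 3663 ± 195 FPKM for the 24 summed pairs. The ratio of the medians was 1.96 against duplicated genes and 1.02 against summed pairs. The second ratio depended on how length was treated. It was 1.24 without division by length, 0.81 when counts were divided by the number of coding windows that occur once in the genome, and 0.99 without near-identical genes, so which of the medians is higher changed with the processing. Across the 32 proteins, log2 coding length and log2 summed FPKM had a Pearson r of -0.47 and a Spearman rho of -0.46, and length and summed CPM (counts scaled to the library total, with no division by length) had 0.61 and 0.58. These describe proteins within the same libraries and are not replicates.

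**Figure D3:**
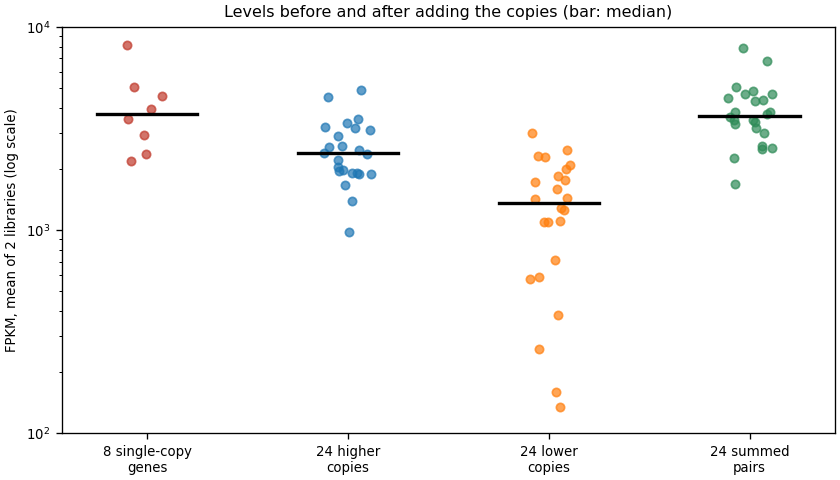
FPKM on a log axis, as the mean of the libraries, for the 8 single-copy genes, the higher and the lower copy of the 24 pairs, and the 24 summed pairs. Each point is a gene or a pair and each bar is the median. Medians are 3739, 2387, 1356 and 3663 FPKM, and the lower copies spread over the widest range.

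Copies that share long stretches need separate reading. Coding windows of 50 bases, the read length, were searched in the genome, and a gene was called near-identical when under 50% of its windows occurred once. This held for 4 members, among them RPS6A and RPS6B with 27.9% of windows found once. Just above 50% came RPS4A (YJR145C) and RPS4B (YHR203C), for eS4, with 53.2%, and RPS24A and RPS24B with 61.8%. In windows of 100 bases the share was 86.8% for both RPS4 genes and 82.8% for both RPS24 genes, against 46.6% for RPS6A and RPS6B. In 26 members every window of 50 bases was found once, and 48 members had at least 80%. Of all annotated genes 4.48% were under 50%, and of the RPS genes 7.14%. In 9 pairs the copies encode the same protein.

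RPS6A was at 1028 and 936 FPKM and RPS6B at 742 and 679 FPKM. Summed, RPS6 ranked 32 among the 32 proteins. Whether reads that fit both copies were dropped, split or given to 1 copy is not stated in the sources used here. If they were dropped, the number of windows found once would be nearer to the length the counts came from. A gene has fewer windows than bases, so short genes such as RPS30 rise on that scale too. On it RPS6 ranked 7, and RPS4 ranked 6, against 21 by coding length. This scale uses windows of 50 bases and takes no account of read pairs, so it may raise RPS4 too far. The level of RPS6 therefore cannot be placed within the group from these counts. The 7 pairs past 2-fold held no near-identical gene.

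**Figure D4:**
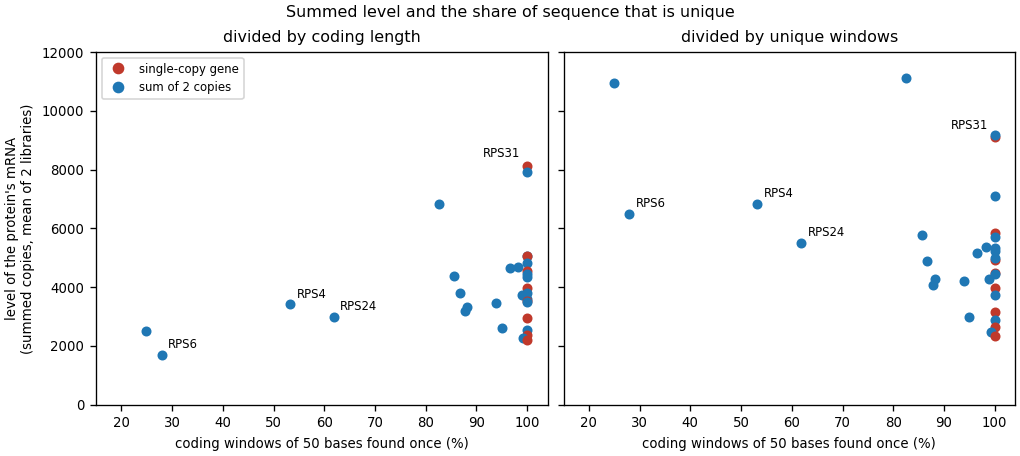
Level of the mRNA for each of the 32 proteins (copies summed, mean of the libraries) against the percentage of coding windows of 50 bases found once in the genome, with level per coding length on the left and per window found once on the right. RPS6 stands at 1692 on the left and 6504 on the right, and RPS31, in which every window is found once, at 8130 and 9101.

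Sequence features that did not enter the choice of the genes were also counted. An intron within the coding region was annotated in 36 of 56 members (64.3%), against 4.69% of all coding genes. Both copies had an intron in 17 pairs, and RPS13 was the only single-copy gene with an intron. Introns were 256 to 551 bases long, with a median of 408.5. The median level was 1893 ± 106 FPKM for the 36 members with an intron and 2760.0 ± 130 FPKM for the 20 members without (SD between replicate medians, n = 2). Since 7 of the 8 single-copy genes have no intron, intron and copy number go together in that set, and their parts in this difference were not tested. The 5′ splice site GTATGT was present in 24 of the 36 introns (66.7%), against 65.7% of the 312 introns of all coding genes. GTACGT was present in 9 (25%), against 8.33%, and GTATGA in 3 (8.33%), against 2.56%. The branch site letters TACTAAC were found in 33 of 36 (91.7%), against 74.4% of all introns. RPS9A, RPS9B and RPS21A lacked them.

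Within 500 bases before the start codon, the letters ACCCNNACA, a core of Rap1 sites, were found on either strand in 18 of 56 RPS genes (32.1%) and in 36 of 81 large-subunit genes (44.4%), against 5.48% of all genes. No other motif was searched. Their start lay 190 to 498 bases before the start codon, with a median of 341. The median level was 1870.2 ± 106 FPKM with these letters and 2251 ± 116 FPKM without. In 11 pairs only 1 copy had them, and that copy was the higher in 5. In the other 6 pairs it was the lower copy.

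The members lie on 14 chromosomes, with 8 on chromosome XII and none on chromosomes I and VI. In 6 places members stand within 30 kb of each other. No background over all genes was counted for these numbers, so they only describe where the members lie. The closest are RPS14B and RPS22A on chromosome X, which face each other with 298 bases between their coding regions. Their levels were 159 and 1953 FPKM, so a low and a high gene stand side by side. RPS18A stands 4369 bases from RPS17B on chromosome IV, and RPS17A stands 2060 bases from RPS18B on chromosome XIII. RPS6A and RPS9A on chromosome XVI are 26554 bases apart, and RPS6B and RPS9B on chromosome II 11733 bases apart.

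Open reading frames of at least 100 codons overlapped the coding sequence of 3 members, and counts there could hold reads of another transcript or lack reads that were ambiguous. A frame of 155 codons on the opposite strand covered all of RPS15, a frame of 108 codons on the opposite strand covered 42.7% of RPS2, and a frame of 129 codons on the same strand covered 16.5% of RPS27A. The part of these frames in the levels was not tested. Without the 3 genes, 6 pairs were past 2-fold, since leaving them out only takes away the RPS27 pair and changes no other ratio.

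Between the libraries nearly all RPS genes differed in the same direction. The median log2 difference, replicate 2 minus replicate 1, was -0.11 over the members, with a range of -0.17 to 0.03, against -0.03 over all genes. Lower in replicate 2 were 54 of 56 RPS genes and 75 of 81 large-subunit genes, against 57.1% of all genes. RPS9A and RPS14B, the 2 lowest members, were the exceptions, at 0.03 each. The standard deviation of the difference was 0.04 over the members, against 0.09 over the large-subunit genes, 0.19 over the 170 other genes of at least 1000 FPKM and 0.22 over all genes. Of those 170 other genes, 60.0% were lower in replicate 2, and their median difference was -0.06. RPS17B and RPS25B fell by 0.17 each on the log2 scale, the most of all members. The libraries thus differ a little in their RPS level, and with 2 libraries of the same group no test of this difference is possible.

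**Figure D5:**
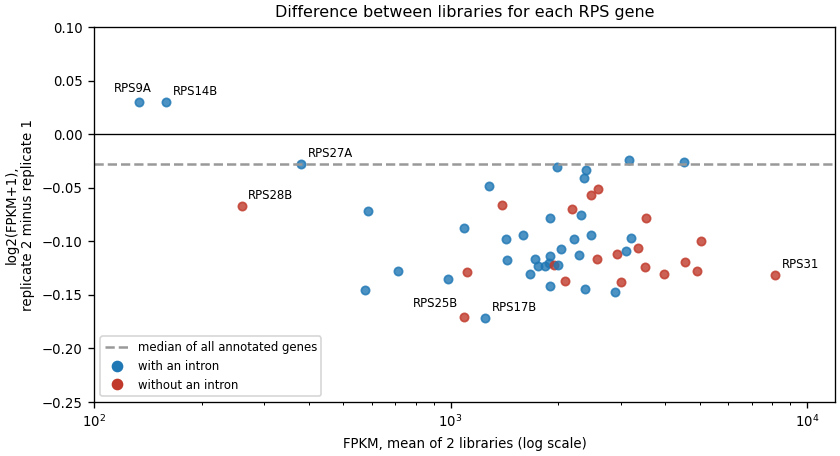
Difference in log2(FPKM+1), replicate 2 minus replicate 1, against mean FPKM on a log axis for each of the 56 members, coloured by the presence of an intron. The dashed line is the median of all annotated genes, -0.03. All points but RPS9A and RPS14B lie below 0.

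Other genes of the same pathway were far from the RPS level or close to it depending on their role. Levels of these genes are means of the libraries. Proteins bound to the 40S subunit outside the RPS set were close. STM1, which clamps idle ribosomes, was at 2172 FPKM and ASC1, the beta-propeller protein of the head, at 1667 FPKM. Of the large-subunit genes RPL41A (7345 FPKM) and RPL41B (6135 FPKM) were highest and RPL43A was lowest, with 13 and 11 counts in replicates 1 and 2. RPL39 (21 and 29 counts) and RPL22A (51 and 44 counts), named after their values were seen, were also low. Every coding window of RPL43A, RPL39 and RPL22A was found once in the genome. Overlapping reading frames were not searched for them. Whether their few counts reflect low levels or reads lost in counting was not tested. Ubiquitin is also made from the fusion genes RPL40A (2837 FPKM) and RPL40B (2104 FPKM) and from the polyubiquitin gene UBI4 (589 FPKM), and RPS31 was above each of them. Among 11 regulators of these genes the median level was 19.2 FPKM, and 2 exceeded the all-gene median in both libraries. HMO1, a high-mobility-group protein found at these promoters, was at 351 FPKM, the repressor STB3 at 115 FPKM and the coactivator IFH1, the lowest, at 6.73 FPKM. Chaperones that guard single small-subunit proteins had a median of 62.6 FPKM. They included YAR1, for Rps3, at 124 FPKM, FAP7, for Rps14, at 83.7 FPKM and TSR2, for Rps26, at 40.4 FPKM. Factors of late 40S assembly had a median of 46.3 FPKM, with HRR25 at 186 FPKM, DIM1 at 110 FPKM and ENP1 at 20.5 FPKM.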

How the data were processed

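For 2 libraries, mRNA was captured on beads and the NEBNext Ultra II DNA kit was used, with paired reads of 50 bases. The deposited files hold counts per gene, although the authors name them FPKM. The values are whole numbers, so FPKM was computed here, and the design had allowed for either unit. Per the submitters' processing notes the authors used the sacCer3 build and featureCounts 2.0.3. For its sequencing data as a whole, the study lists fastp, BWA and Picard MarkDuplicates without saying whether it covers RNA-seq. Not given in the sources used here were the annotation, the strand setting and the treatment of reads shared between genes. A count may be a read or a read pair. Coding lengths, introns and sequences came from the R64 genome and its RefSeq annotation, in which 685 of 6692 rows had no coding sequence. Those rows stayed in the library totals and in nothing else.

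Python 3.11.15 with numpy 2.4.6, scipy 1.17.1 and Biopython 1.88 was used, and figures were drawn with matplotlib 3.10.9. R 4.3.3 with edgeR 4.0.16 and DESeq2 1.42.0 gave scaling factors only, since 1 group allows no test. A pseudocount of 1 FPKM was used on the log2 scale. The window search was tested on simulated sequences. The counts of the members differed between the libraries by a chi-square of 10.1 per degree of freedom (55 degrees), above counting noise, so they are not a single library deposited under both labels. This covers counting error only and does not show that the cultures were separate.

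The members and lists were chosen with earlier results of these data known. By the rule every member may be named, though some are counted in all totals and not reported singly here, and of each pathway list the 2 highest and the 1 lowest gene by mean FPKM. Alternatives were leaving out each replicate, other scalings, no division by length, windows found once, and leaving out near-identical or overlapped genes.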

Additional observations from a re-analysis of the deposited data

How the results depend on the processing

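With 1 group no fit with a replicate term exists. No paired analysis was possible because the result comes from no test. Of 79 alternative values, 53 stayed within a set limit. The limit was the spread between the replicates, or 1.5 times for counts of genes and 0.01 for the replicate difference. Part of the 53 was fixed in advance, so the number is no measure of robustness. Scaling a library cannot change the ratio of copies within it, and a value from a single replicate lies near the mean of both by construction. The ratio of single-copy to summed-pair medians, 1.02, turned to below 1 in 2 alternatives, at 0.81 per window found once and 0.99 without near-identical members. Without replicate 1 or 2, the ratio of single-copy to duplicated medians was 1.95 and 1.97. Without division by length, the median RPS level was 854 CPM, the standard deviation of log2 levels was 1.24 over genes and 0.57 over proteins, and the single-copy median was 2.20 times that of duplicated genes and 1.24 times that of summed pairs. Per window found once, the median was 2738, the standard deviation over proteins 0.57, and these ratios 1.59 and 0.81. Without near-identical members, the median was 2138 FPKM, the median log2 ratio of copies 0.81, the standard deviations 1.16 and 0.48, and the ratios 1.90 and 0.99. Without overlapped members, the log2 ratio was 0.71, the standard deviations 1.12 and 0.52, and the ratios 2.24 and 1.14. A mean of log2 values gave 1792 FPKM. At 1.5-fold, 13 pairs differed. The median replicate difference was -0.080 with TMM and -0.078 with DESeq2 size factors. At under 80% of windows, 8 members were near-identical. Each member had at least 1824 counts in each library. The effect of shared sequence on the RPS6 counts was not tested.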

Other observations

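By their medians, the chaperones and late assembly factors of the 40S subunit differed more between the libraries than the RPS genes did. The median log2 difference, replicate 2 minus replicate 1, was -0.44 over 5 chaperones and -0.43 over 9 assembly factors, against -0.11 over the 56 RPS genes and -0.03 over all genes. LTV1, an export factor that binds the head of the subunit, had 46.3 FPKM in replicate 2 and 69.3 FPKM in replicate 1. RRP12, also an export factor, had 19.96 FPKM in replicate 2 and 33.5 FPKM in replicate 1, and HRR25, a kinase with roles outside the ribosome, had 183 FPKM in replicate 2 and 189 FPKM in replicate 1. The chaperone TSR4 also changed little, with 60.8 FPKM in replicate 2 and 64.3 FPKM in replicate 1. LTV1, RRP12 and TSR4 were chosen after their values were seen. This difference has no test, since both libraries belong to the same group.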
